A study of Danio rerio with 8 samples.

Results

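The mitochondrial ribosome genes described here are mrpl14, mrpl17, mrps14 and tfb1m, measured in whole wildtype zebrafish embryos (Danio rerio) with and without low oxygen at 2 stages of development. They were picked by symbol, with the values of these arrays already known, so their own differences are given as descriptions without a test. Each has 1 row, and the 4 rows are among 2663 rows with a gene symbol and 37157 rows in all. All 4 groups were wildtype embryos, of a strain not given in the sources used here. Hypoxic segmentation embryos (8 somites, 12 h of development) and hypoxic gastrula embryos (shield stage, 6 h) spent 1 to 2 h in medium equilibrated with nitrogen to less than 1% oxygen. Normoxic segmentation embryos and normoxic gastrula embryos of the same ages had no stress. Each sample was a pool of 12 to 15 dechorionated embryos, so a value is an average over embryos and over all their cell types. The labels give 2 biological replicates per group, 1 labelled with Cy3 and 1 with Cy5. Values were used for 1 hypoxic segmentation sample, 2 normoxic segmentation samples, 2 hypoxic gastrula samples and 2 normoxic gastrula samples, and the second hypoxic segmentation sample held 0 values.

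Mitochondria keep a small genome of their own and translate its few messages, all core parts of the respiratory chain and the ATP synthase, on dedicated ribosomes. Those mitoribosomes have a large subunit, which joins amino acids, and a small subunit, which reads the message, and all of their proteins are encoded in the nucleus and imported. Mrpl14 and mrpl17 encode proteins of the large subunit and mrps14 a protein of the small subunit. Tfb1m encodes the methyltransferase that, in mammals, dimethylates neighbouring adenines of the small subunit's ribosomal RNA, a step in assembling that subunit. Early fish embryos live on mitochondria and messages supplied by the egg, and the embryo's own genome takes over before gastrulation.

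Values are RMA values on a scale taken as log2, where a step of 1 stands for a 2-fold step, and they are comparable between arrays for 1 gene but not between genes. Differences are those of group means after adjustment for dye, with the standard error (SE) of a limma fit over all rows. Array medians ran from 8.51 to 8.74, while the interquartile range was 2.18 to 2.31 on the hypoxic gastrula arrays and 2.75 to 2.86 on the normoxic gastrula arrays. When rows were split into 10 equal groups by mean level, the level group that holds mrpl14, mrpl17 and mrps14 had a median hypoxia difference of -0.24 at the segmentation stage and -0.56 at the gastrula stage. The level group that holds tfb1m had medians of 0.07 and 0.20. With array medians set equal, the median of all rows shifted by -0.18 for gastrula hypoxia and by 0.12 for the difference between the stages' responses. The stage labels were matched by somite genes. Of 5 measured, 4 passed as higher at the segmentation stage in normoxia, where 6.21% of all rows did. Among the 4, meox1 rose by 3.01 ± 0.38 (limma adjusted p = 0.0146). The other, acta1b, was also higher, by 0.95 ± 0.23 (limma adjusted p = 0.0724). Of 4 maternal and early zygotic genes measured, 2 passed as lower, nanog and zp2.2, where 3.88% of all rows did. Nanog, a maternal and early zygotic regulator, fell by 3.52 ± 0.35 (limma adjusted p = 0.00821). Slbp2 and sox19b were lower too, at -1.16 ± 0.33 and -0.27 ± 0.22, and did not pass. The HIF target bnip3, induced by low oxygen, lay at 9.79 and 9.67 on the hypoxic gastrula arrays, against 8.41 and 7.79 on the normoxic ones (limma adjusted p = 0.0814). Of 4 measured HIF genes 0 passed, where 0% of all rows did. At the segmentation stage bnip3 was at 8.80 on the hypoxic array, against 8.51 and 7.79 on the normoxic ones (0.65 ± 0.46, limma adjusted p = 0.886). The stage genes were also compared by oxygen. In hypoxic gastrulae nanog differed by -2.12 ± 0.35 (limma adjusted p = 0.0665) and slbp2 by -1.02 ± 0.33 (limma adjusted p = 0.139). Sox19b, an early transcription factor gene, and zp2.2 differed there by -0.41 ± 0.22 and -0.40 ± 0.22. None of the 4 passed, where 0% of all rows did. With 1 hypoxic array, segmentation embryos gave -1.43 ± 0.45 for nanog, -0.71 ± 0.42 for slbp2 and -0.36 ± 0.29 for zp2.2. Sox19b differed there by 0.96 ± 0.29 and the somite gene ripply1 by 0.99 ± 0.24. Over the 5 somite genes the differences ran from -0.21 to 0.99 in hypoxic segmentation embryos and from -0.47 to 0.33 in hypoxic gastrulae. The part of these stage genes in the hypoxia differences below was not tested.

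The comparison of the stages in normoxia asked how expression changes over normal development. The 3 ribosomal protein genes were all higher at the segmentation stage, and the difference of tfb1m was smaller than its SE. Mrpl14 (NM_201147) had values of 12.34 and 12.50 in normoxic segmentation embryos, against 11.54 and 11.00 in normoxic gastrulae. The arrays of the stages did not overlap, and the difference was 1.15 ± 0.20 (SE, n = 2 arrays per group), or 2.22-fold. Mrpl17 (NM_001004683), the other large subunit gene, had values of 13.08 and 13.02 in normoxic segmentation embryos, against 11.96 and 11.58 in normoxic gastrulae. The stages did not overlap, the difference was 1.28 ± 0.21 (2.43-fold), and the SD between the normoxic segmentation replicates was 0.04.

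Mrps14 (NM_001045358), of the small subunit, had the greatest stage difference of the 4 genes, 1.46 ± 0.25 (2.75-fold). Its values were 12.39 and 12.60 in normoxic segmentation embryos, against 11.24 and 10.82 in normoxic gastrulae, again with no overlap. Tfb1m (NM_001076769) had 8.18 and 7.88 in normoxic segmentation embryos, against 8.02 and 7.93 in normoxic gastrulae. These values overlapped, the difference was 0.05 ± 0.21, and all 4 lay 0.40 to 0.66 below the median of their array. Whether tfb1m was above background in normoxia is not known, since no background signal was used here. In whole embryos a change in the number of cells that use a gene and a change in its RNA per cell cannot be told apart.

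**Figure D1:**
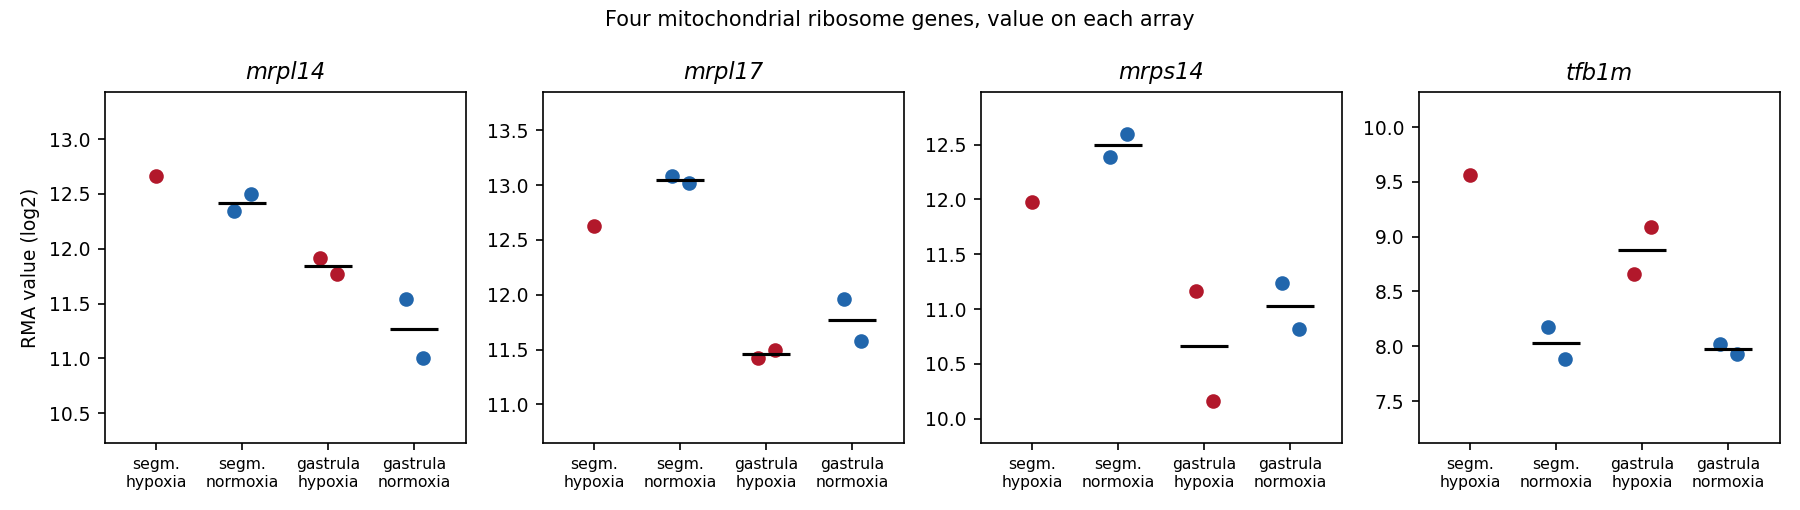
Value of each gene on each array (RMA value, log2), with 1 panel per gene and a vertical axis of equal span in each; dots are single arrays, bars are means of 2 arrays, red is hypoxia and blue is normoxia. Mrpl14, mrpl17 and mrps14 step up at the segmentation stage in either oxygen condition, while tfb1m is at 8.18 or below on all 4 normoxic arrays and at 8.66 or above on all 3 hypoxic arrays. These genes were picked with their values known, and the share of all rows that separate in these ways was not computed.

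Counted against all rows, mrpl14, mrpl17 and mrps14 had a limma adjusted p under 0.05 for the stage difference, 3 of 4 genes, where 10.1% of all rows passed, 6.21% as higher and 3.88% as lower. The arrays of the stages were separate and higher for 3 of 4 genes, as for 21.4% of all rows, and 28.8% of rows were separate and lower. The genes were chosen with these values known, so nothing is read from these counts. With a replicate block over all stages in place of dye, 2 of 4 genes passed, where 11.8% of all rows did. With the block within stage 0 of 4 passed, where 7.1% of all rows did. The first count was 2 of 4 without the dye term, after quantile normalization again and with an intensity trend, where 13.2%, 9.8% and 10.8% of all rows passed, and 1 of 4, mrps14, without gastrula normoxia replicate 2, where 9.72% did. It was 0 of 4 without either segmentation normoxia replicate, without either hypoxic gastrula replicate and with only the arrays compared, where 1.67% to 5.16% of all rows passed.

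Between the hypoxic samples of the stages all 4 differences were above 0, as were those of 38.5% of all rows. The level group of mrpl14, mrpl17 and mrps14 had a median of 0.23 there, and that of tfb1m -0.20. The part of level in these differences was not tested. Mrps14 was at 11.98 in the hypoxic segmentation embryos, against 11.16 and 10.16 in hypoxic gastrulae, a difference of 1.59 ± 0.33. Mrpl17 differed by 1.22 ± 0.27 and mrpl14 by 0.96 ± 0.26. Tfb1m differed by 0.58 ± 0.28, with 9.56 in the hypoxic segmentation embryos, against 8.66 and 9.09 in hypoxic gastrulae, so under hypoxia it too was higher at the later stage. Of the 4 genes, 0 had a limma adjusted p under 0.05 in this comparison, which rests on 1 segmentation array, where 2.4% of all rows passed, 1.97% as higher and 0.423% as lower. At an unadjusted p under 0.05, 15.6% of rows passed, 9.92% as higher and 5.63% as lower. The segmentation array lay above both gastrula arrays for 4 of 4 genes, as for 28.1% of rows, and below both for 48.4% of rows.

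Of 86 mitoribosomal protein genes listed, 13 were among the named rows, 10 of them besides the 3 above. For the stage difference in normoxia, 0 of the 10 passed by limma (smallest adjusted p = 0.0816), 7 lay above 0 and the median was 0.38, where the median of all rows was -0.06 and 40.2% of rows lay above 0. At an unadjusted p under 0.05, 4 of the 10 were higher and 0 lower, where 12.3% and 11.3% of all rows were. The 4 other large subunit genes all lay above 0, from 0.37 for mrpl13 to 0.91 ± 0.29 for mrpl46. Over the settings tried, the lowest difference of mrpl13 was -0.04.

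Of the 6 other small subunit genes, 3 lay above 0. Mrps9, whose counterpart in bacteria touches the tRNA held by the small subunit, had values of 11.45 and 11.74 in normoxic segmentation embryos, against 10.88 and 10.86 in normoxic gastrulae (0.73 ± 0.19, limma adjusted p = 0.0816). Mrps15 differed by 0.65 ± 0.19 (adjusted p = 0.112 in limma). Mrps27, a member of the RNA-binding pentatricopeptide repeat family, differed by -0.42 ± 0.44, with 10.97 and 11.64 in normoxic segmentation embryos, against 11.36 and 12.10 in normoxic gastrulae. Without gastrula normoxia replicate 1, mrps27 differed by -1.19 (adjusted p = 0.0341 in limma), where 16.2% of all rows passed. Mrps25 and mrps6 differed by -0.19 ± 0.24 and -0.12 ± 0.31. The 13 measured mitoribosomal protein genes thus ran from -0.42 to 1.46 at the RNA level. The 10 besides the 3 picked with their values known ran from -0.42 to 0.91.

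**Figure D2:**
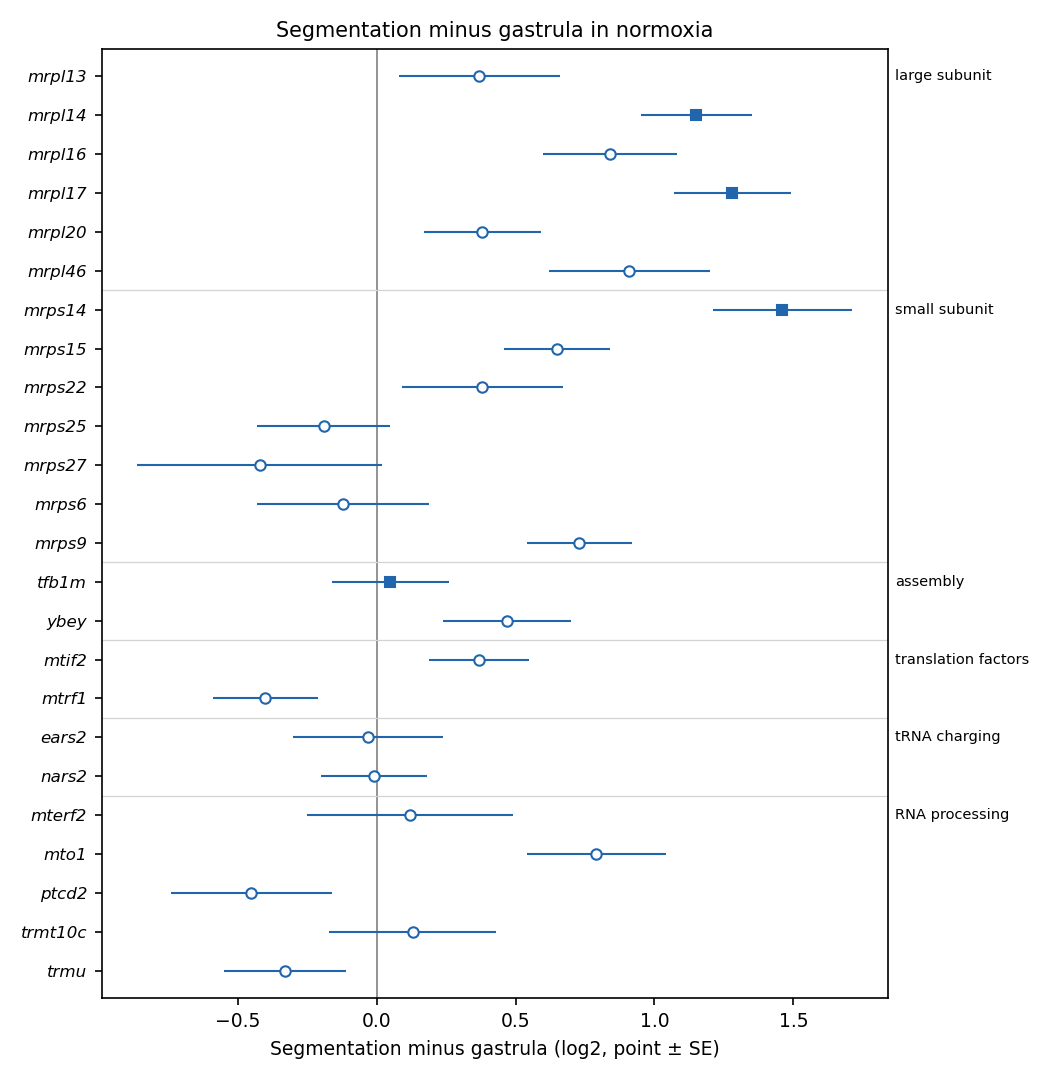
Segmentation minus gastrula difference in normoxia (log2, horizontal axis) for the 24 measured genes of the mitochondrial ribosome and mitochondrial gene expression, grouped by role; points are differences with bars of 1 SE, filled squares are mrpl14, mrpl17, mrps14 and tfb1m, and open circles are the other genes. Mrps14, mrpl17 and mrpl14 lie farthest to the right, at 1.46, 1.28 and 1.15. They were picked with their values known, so nothing is read from their rank.

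Outside the ribosome proteins, 10 other genes of mitochondrial gene expression were measured, and for the stage difference 0 passed (smallest limma adjusted p = 0.143), with 1 at an unadjusted p under 0.05 and a median of 0.06. That gene was mto1, of mitochondrial tRNA modification (0.79 ± 0.25). Of all rows 10.1% passed and 23.6% had an unadjusted p under 0.05, and their median was -0.06. Ybey, an RNase that acts in assembly of the small subunit, differed by 0.47 ± 0.23. Nars2 and ears2, which charge mitochondrial tRNAs, differed by -0.01 ± 0.19 and -0.03 ± 0.27. Of the 10 genes, 5 lay above 0 and 5 below, where 40.2% of all rows lay above 0. The lowest were ptcd2 (-0.45 ± 0.29), mtrf1 (-0.40 ± 0.19) and trmu (-0.33 ± 0.22). Genes for proteins of the cytosolic ribosome gave another reference. Of 5 measured, 4 lay above 0 with a median of 0.65, from -0.11 ± 0.42 for rpl37 to 1.17 ± 0.27 for rpl27a, and 0 passed (smallest adjusted p = 0.0638 in limma, 2 at an unadjusted p under 0.05).

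Gastrulae with and without low oxygen were compared to see how embryos of that stage respond to its loss. The differences were 0.89 for tfb1m, 0.57 for mrpl14, -0.31 for mrpl17 and -0.37 for mrps14, and those of mrpl17 and mrps14 changed sign with the scaling. Tfb1m had values of 8.66 and 9.09 in hypoxic gastrulae, against 8.02 and 7.93 in normoxic gastrulae. The arrays did not overlap, and the difference was 0.89 ± 0.21, or 1.86-fold. Among all rows 31.5% were separate and higher and 29.8% separate and lower between these groups, and nothing is read from the separation of 3 of 4 genes.

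Mrpl14 had values of 11.92 and 11.77 in hypoxic gastrulae, against 11.54 and 11.00 in normoxic gastrulae, a difference of 0.57 ± 0.20 (1.49-fold). Its level group had a median of -0.56. After quantile normalization again the difference was 1.04, and without gastrula normoxia replicate 2, the array with the lowest mrpl14 value, it was 0.38.

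Mrpl17 had values of 11.42 and 11.50 in hypoxic gastrulae, against 11.96 and 11.58 in normoxic gastrulae. The nearest arrays of the groups were close, and the difference was -0.31 ± 0.21. It was 0.19 after quantile normalization again, -0.54 without gastrula normoxia replicate 2 and -0.09 without gastrula normoxia replicate 1. Mrps14 had values of 11.16 and 10.16 in hypoxic gastrulae, against 11.24 and 10.82 in normoxic gastrulae, a difference of -0.37 ± 0.25. The SD between its hypoxic replicates was 0.70, the difference was 0.07 after quantile normalization again, and it was -0.03 without hypoxic gastrula replicate 2 and -0.71 without replicate 1. No direction is read for mrpl17 or mrps14 at this stage.

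In the fit with dye 0% of rows passed at this stage, none of these 4 genes among them, while 26.8% of rows had an unadjusted p under 0.05. With an adjusted p under 0.1, tfb1m was the 1 gene of the 4 that passed, where 11.5% of all rows passed. The gene was chosen with these values known, so nothing is read from that pass. Without gastrula normoxia replicate 1 the difference of tfb1m was 1.12.

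At the segmentation stage the same comparison has 1 hypoxic array and 2 normoxic arrays, and that array was assumed to vary like the others. It was labelled with Cy5, so the dye adjustment moves these differences from those of plain means. Without the dye term they were 1.53 for tfb1m, 0.24 for mrpl14, -0.42 for mrpl17 and -0.51 for mrps14. Tfb1m was at 9.56 in the hypoxic segmentation embryos, against 8.18 and 7.88 in normoxic segmentation embryos. That is a difference of 1.43 ± 0.28, or 2.69-fold, the greatest of the 4 genes in either hypoxia comparison. It ran from 1.35 to 1.54 over 15 other settings and samples left out. The hypoxic array stayed in all of them, and the row filter, trend and robust settings leave a difference as it is by construction. The range therefore does not show how far this single array could vary. On the hypoxic array tfb1m lay 0.94 above the array's median, where on the normoxic segmentation arrays it lay below it.

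Mrpl14 was at 12.66 in hypoxic segmentation embryos, against 12.34 and 12.50 in normoxic segmentation embryos, a difference of 0.38 ± 0.26. Mrpl17 was at 12.63 in hypoxic segmentation embryos, against 13.08 and 13.02 in normoxic segmentation embryos (-0.38 ± 0.27). Mrps14 was at 11.98 in hypoxic segmentation embryos, against 12.39 and 12.60 in normoxic segmentation embryos (-0.24 ± 0.33). Its fitted difference was 0.09 without segmentation normoxia replicate 1, although the value left, 12.60, also lies above the hypoxic one. The segmentation arrays left there differ in dye, and the dye adjustment comes from the gastrula groups. The hypoxic array lay outside both normoxic arrays for all 4 genes, above for tfb1m and mrpl14 and below for mrpl17 and mrps14, as it did for 33.7% of all rows above and 38.4% below. In the fit with dye 0% of rows passed, while 7.09% had an unadjusted p under 0.05, 2.47% as higher and 4.62% as lower.

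The hypoxia and stage comparisons share arrays and are not independent of each other. The hypoxia differences of the stages were compared directly. For tfb1m the segmentation difference was greater by 0.53 ± 0.35 and for mrps14 by 0.13 ± 0.41, and for mrpl17 and mrpl14 the gaps were -0.06 ± 0.34 and -0.19 ± 0.33. By limma 0% of rows passed for this difference, and 4.22% had an unadjusted p under 0.05, 2.56% above 0 and 1.67% below. Each of the 4 gaps was under 2 SE, and the segmentation side rests on 1 hypoxic array. The level group of mrpl14, mrpl17 and mrps14 had a median gap of 0.31, and that of tfb1m -0.15. The part of level in these gaps was not tested.

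**Figure D3:**
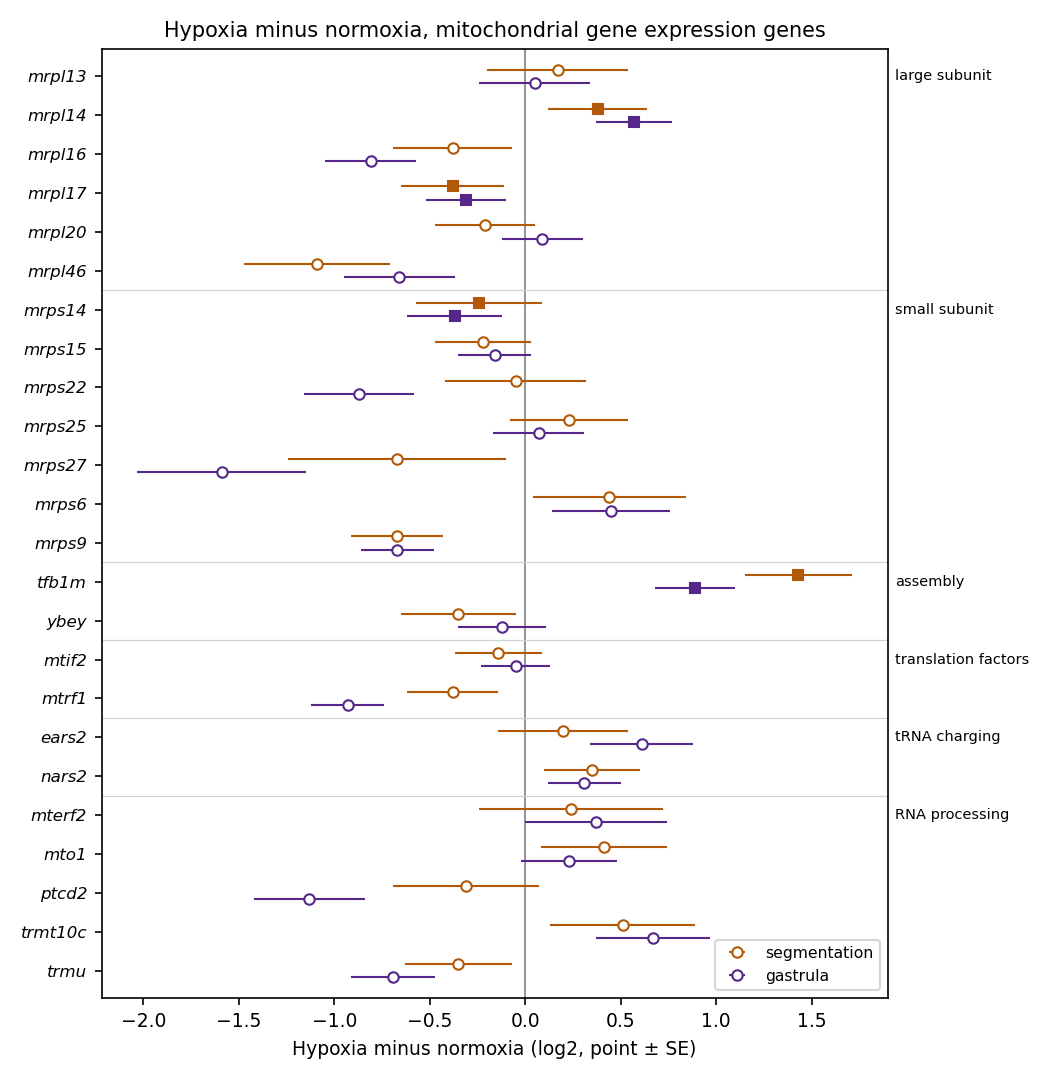
Hypoxia minus normoxia difference (log2, horizontal axis) for the 24 measured genes, grouped by role, at the segmentation stage (orange) and the gastrula stage (purple); points are differences with bars of 1 SE, filled squares are mrpl14, mrpl17, mrps14 and tfb1m, and open circles are the other genes. Tfb1m lies farthest to the right at either stage, at 1.43 and 0.89, and mrps27 farthest to the left at the gastrula stage, at -1.59. Tfb1m was picked with its values known, so nothing is read from its rank.

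Of the 10 other mitoribosomal protein genes, 6 lay below 0 in hypoxic gastrulae and the median was -0.41, where the median of all rows was 0.01. By limma 0 of 10 passed (smallest adjusted p = 0.113), and 4 were lower and 0 higher at an unadjusted p under 0.05, where 15.8% and 11% of all rows were. The level groups of these genes had medians from -0.56 to 0.08, and the part of level in their differences was not tested. Mrps27 had values of 10.61 and 9.67 in hypoxic gastrulae, against 11.36 and 12.10 in normoxic gastrulae (-1.59 ± 0.44, limma adjusted p = 0.113). Mrps9 had values of 10.29 and 10.11 in hypoxic gastrulae, against 10.88 and 10.86 in normoxic gastrulae (-0.67 ± 0.19, limma adjusted p = 0.113). Both sets of arrays were separate, as they were for mrps22 (-0.87 ± 0.29), mrpl16 (-0.81 ± 0.24) and mrpl46 (-0.66 ± 0.29). Such separation was common, with 29.8% of all rows separate and lower and 31.5% separate and higher.

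The remaining 5 mitoribosomal protein genes overlapped between hypoxic and normoxic gastrulae, and their differences ran from -0.16 ± 0.19 for mrps15 to 0.45 ± 0.31 for mrps6. Mrpl13, mrpl20 and mrps25, at 0.05, 0.09 and 0.07, lay near 0. Leaving out gastrula normoxia replicate 1 brought mrps27 past the threshold, at -2.36 (limma adjusted p = 0.00953), along with 5 genes that are not mitoribosomal proteins. These are 6 of the 20 other mitochondrial genes, where 22.3% of all rows passed in that setting. At the segmentation stage, with 1 hypoxic array, 7 of the 10 lay below 0 with a median of -0.21. The median of all rows was -0.01 there, and 48.3% of rows lay above 0. The level groups of these genes had medians from -0.28 to 0.01 there, and the part of level was not tested. Mrpl46 had the lowest difference of the 10, with 8.32 in hypoxic embryos, against 9.13 and 10.04 in normoxic embryos (-1.09 ± 0.38). Next were mrps9 (-0.67 ± 0.24) and mrps27 (-0.67 ± 0.57). Above 0 were mrps6 (0.44 ± 0.40), mrps25 (0.23 ± 0.31) and mrpl13 (0.17 ± 0.37).

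**Figure D4:**
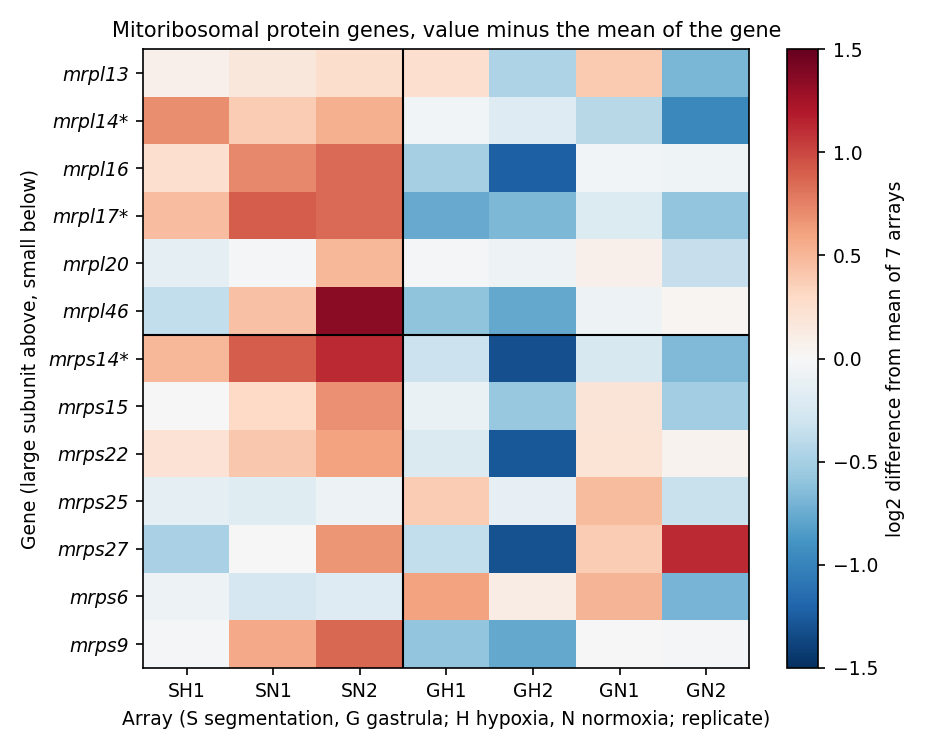
Value of each of the 13 measured mitoribosomal protein genes on each array minus that gene's mean over 7 arrays (log2, colour scale from blue, lower, to red, higher); columns are arrays, rows are genes with the large subunit above the line, and asterisks mark mrpl14, mrpl17 and mrps14. Mrpl14, mrpl17 and mrps14 are redder on all 3 segmentation arrays than on any gastrula array, and mrpl14 is reddest on the hypoxic segmentation array. The share of all rows that separate by stage over the 7 arrays was not computed.

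Among genes that act on mitochondrial RNA or its translation, differences under hypoxia had either sign. In hypoxic gastrulae 5 of the 10 lay above 0 with a median of 0.09, and 0 passed (smallest limma adjusted p = 0.0758, 3 lower and 0 higher at an unadjusted p under 0.05). Of all rows 0% passed, and 15.8% were lower and 11% higher at that unadjusted p. Mtrf1, of the mitochondrial release factor family, had values of 8.42 and 8.10 in hypoxic gastrulae, against 9.21 and 9.19 in normoxic gastrulae (-0.93 ± 0.19, limma adjusted p = 0.0758), and without the dye term it passed (limma adjusted p = 0.0407), as did 8.14% of all rows. Ptcd2, a pentatricopeptide repeat protein of mitochondrial RNA processing, differed by -1.13 ± 0.29, and trmu, which thiolates mitochondrial tRNAs, by -0.69 ± 0.22.

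On the higher side were trmt10c, a subunit of mitochondrial RNase P (0.67 ± 0.30), ears2 (0.61 ± 0.27), mterf2, of the mitochondrial transcription termination factor family (0.37 ± 0.37), nars2 (0.31 ± 0.19) and mto1 (0.23 ± 0.25). Mtif2, the initiation factor of mitochondrial translation, and ybey differed by -0.05 ± 0.18 and -0.12 ± 0.23. At the segmentation stage, with 1 hypoxic array, the differences of these 10 ran from -0.38 for mtrf1 to 0.51 for trmt10c. Cytosolic ribosomal protein genes differed in hypoxia by -0.24 to 0.14 at the segmentation stage and by -0.09 to 0.57 at the gastrula stage. In gastrulae 0 of 5 had an unadjusted p under 0.05 by limma, where 26.8% of all rows did.

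The large subunit genes mrpl17 and mrpl14 were set side by side within each array. The pair was chosen after their values were seen, and its gap restates their differences given above, so nothing is read from it. Taking mrpl17 minus mrpl14 within each array removes any shift common to the array, and its absolute level has no meaning between genes. The result was -0.03 in hypoxic segmentation embryos, against 0.74 and 0.52 in normoxic segmentation embryos. It was -0.51 and -0.27 in hypoxic gastrulae, against 0.42 and 0.58 in normoxic gastrulae. The 3 hypoxic arrays lay below the 4 normoxic arrays for this pair, and the share of other pairs that do so was not computed.

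In the fit, the hypoxia difference of mrpl17 minus that of mrpl14 was -0.76 at the segmentation stage and -0.88 at the gastrula stage. When arrays were quantile normalized again it was -0.80 and -0.85, with the gastrula differences of both genes above 0. The part of level in this gap was not tested. The stage difference in normoxia was 0.13 greater for mrpl17 than for mrpl14.

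**Figure D5:**
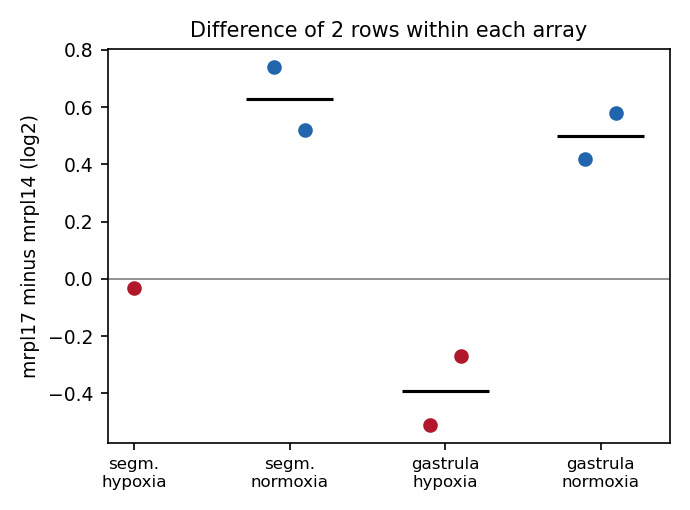
Difference of the mrpl17 and mrpl14 values within each array (log2, vertical axis) by group; dots are arrays, bars are means of 2 arrays, red is hypoxia and blue is normoxia. The 3 hypoxic arrays lie between -0.51 and -0.03 and the 4 normoxic arrays between 0.42 and 0.74.

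How alike the 4 genes ran over the 7 arrays was described by Pearson's r, without a test, since the arrays fall into 2 stages and r counts the step between them. The likeness was 0.930 for mrpl17 and mrps14, 0.759 for mrpl14 and mrpl17, and 0.742 for mrpl14 and mrps14. Tfb1m was unlike the ribosomal protein genes, at 0.397 with mrpl14, -0.144 with mrpl17 and -0.233 with mrps14. Among all named genes, those most like mrpl17 were pin4, a peptidyl-prolyl isomerase gene (0.992), snapc3, of the complex that drives small nuclear RNA genes (0.991), and ppa2, an inorganic pyrophosphatase gene (0.985). Those most like mrps14 were meox1 (0.988), sdr39u1 (0.987) and sid4 (0.986).

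Nearest to mrpl14 were apip, an enzyme gene of methionine salvage (0.983), zgc:153284 (0.967) and zgc:113184 (0.964). Apip had values of 12.71 and 12.30 in hypoxic gastrulae, against 12.20 and 11.33 in normoxic gastrulae, so it shared with mrpl14 both the step between stages and the low value on gastrula normoxia replicate 2. That low value was not particular to this pair. Mrps6, for example, had 12.80 there, against 14.01 on replicate 1, while mrps27 went the other way, with 12.10 against 11.36. Nearest to tfb1m were cbx7a, a Polycomb group gene (0.984), dclk1a, a doublecortin-like kinase gene (0.965), and nars2 (0.954). Cbx7a was at 8.70 in hypoxic segmentation embryos, against 7.82 and 7.68 in normoxic segmentation embryos. In the RefSeq annotation used for names the 4 genes lie on 4 different chromosomes, so none is a neighbour of another.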

How the data were processed

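The deposited table gives 1 column of log2 values per sample, summarised by RMA per the submitters' processing notes, with no version; array design, scanner, background and the pairing of dyes on arrays are not given in the sources used here. The log2 scale was inferred from values between 6.85 and 15.96. The deposited rows were used without further scaling. An array here means the values of 1 sample, and the fit treats samples as independent of each other. Rows with RefSeq identifiers (3055 of 37157) were matched without versions to symbols of the GRCz12tu RefSeq table, and 2663 matched; genes on rows of other identifiers were not named, and no sequences were used here.

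A linear model with 4 groups and dye was fitted to 7 arrays with limma 3.58.1 under R 4.3.3 (2 residual and 2.92 prior degrees of freedom), with two-sided tests and p-values adjusted by Benjamini-Hochberg across every row (threshold 0.05). The fit was tested on simulated data. The simulated noise was independent between arrays, with no dye effect, so the error rate under deviations shared between groups was not tested. Precision is limited by how few arrays there are. Nothing in the labels names separate clutches, so the spread behind a p-value is that between pools of embryos. The 4 genes and the lists (6 mitochondrial lists, 194 symbols, 24 measured, plus cytosolic ribosomal proteins and stage and HIF checks) were chosen with earlier results of these data known. The text names the 4 genes, every other measured gene of the mitochondrial lists, and for each of the 4 the 3 named genes of highest r. The alternatives were a fit without dye, replicate blocks, other scalings, row filters, prior variances and thresholds, fewer arrays, and each array left out.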

Additional observations from a re-analysis of the deposited data

Results flagged for a closer look

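Mrpl20, of the large subunit, was higher in both hypoxic gastrula arrays than the mean of normoxic gastrulae and lower in the hypoxic segmentation array than the mean of its controls. Values were 12.16 in hypoxic segmentation embryos, against 12.28 and 12.79 in normoxic segmentation embryos, and 12.28 and 12.22 in hypoxic gastrulae, against 12.37 and 11.95 in normoxic gastrulae. The difference between the stages' hypoxia differences was -0.30 ± 0.33 (SE), which did not pass in limma (limma adjusted p = 1, unadjusted p = 0.412).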

How the results depend on the processing

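The 3 stage differences of mrpl14, mrpl17 and mrps14 and the hypoxia differences of tfb1m and mrpl14 kept their direction in all settings tried, while those of mrpl17 and mrps14 in hypoxic gastrulae, mrps14 in hypoxic segmentation embryos and the stage difference of tfb1m did not. The row filter, trend, robust and threshold settings leave a fitted difference as it is by construction. For gastrula hypoxia and the stages in normoxia, so do the dye and block settings and the use of only the arrays compared. Leaving out an array of another group changes nothing there either. In those 2 comparisons only the other scalings and leaving out a compared array could change a direction. For mrps14 in hypoxic segmentation embryos the sign changed in 1 of 15 settings, where the arrays compared differ in dye. The median over the 4 genes for gastrula hypoxia, 0.13, was 0.48 after quantile normalization again, and that for the difference between the stages' responses, 0.04, was -0.25 with the replicate block over all stages and -0.27 after quantile normalization again. For gastrula hypoxia, 0 rows passed, and 3025 passed without dye, 1375 with the replicate block over all stages, 1300 after median centring (16.8% of them higher), 2002 without the lowest 25% of rows, 1712 with an intensity trend and 4287 at an adjusted p under 0.1. Leaving out 1 array gave 0 to 8275, the highest without gastrula normoxia replicate 1. Of rows at an unadjusted p under 0.05, 40.9% were higher, against 25.2% after median centring; for segmentation hypoxia 34.8% were, against 46.9% after quantile normalization again, and for the difference between responses 60.5%, against 75.2% after median centring. Of the 20 other mitochondrial genes, 0 passed, and 1 did without dye and at 0.1, and 0 to 6 with 1 array left out. For segmentation hypoxia 9 rows passed without dye. For the stages in normoxia, 3749 rows passed, and 5847 did at 0.1, 1918 with only the arrays compared and 619 to 6036 with 1 array left out; of the 20 genes 1 passed at 0.1 and 0 to 1 with 1 array left out. For the stages in hypoxia, 890 rows passed, and 1555 did without dye, 1734 at 0.1, 0 with the replicate block within stage, 0 with only the arrays compared and 0 to 2568 with 1 array left out. The cause of these moves was not tested. Replicate deviations correlated over rows at -0.146 between hypoxic and normoxic gastrulae, -0.273 between hypoxic gastrulae and normoxic segmentation embryos and 0.540 between the normoxic groups. The signs differed, so the numbers were not taken to pair samples over all groups. Replicate 1 was labelled with Cy3 in both gastrula groups and with Cy5 in normoxic segmentation embryos. The 0.540 thus runs with the replicate number and against the dye of the fit, the -0.273 runs with the dye, and the -0.146 against both. With the replicate block over all stages in place of dye, the segmentation hypoxia difference was 0.15 for mrpl14 and -0.71 for mrps14. For the stages in normoxia 2 of the 4 genes passed with that block, where 11.8% of all rows did. With the block within stage 0 of the 4 passed, where 7.1% of all rows did. A crossed pairing at the gastrula stage, chosen after seeing the data, gave 5348 rows for gastrula hypoxia, 14.4% of all rows, and 3 of the 20 genes. Each of the 4 genes had 1 row, so no other row could be tried.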
